A study of Triticum aestivum with 12 samples.

Results

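Low-confidence (LC) gene models make up the larger part of the wheat gene annotation, and their counts in anthers were examined here. An LC model was any gene ID ending in LC, except those of chromosome 1B with a number under 400000 after the G. This rule gave 157302 of the 266760 models counted, next to 105253 high-confidence (HC) models. The stretch of chromosome 1B that was set aside held 2544 LC and 1455 HC models, and a further 206 models had IDs of another form and were in neither class. Anthers of the heat-sensitive winter wheat cultivar ‘Mv 17-09’ and of the tolerant ‘Ellvis’ were sampled at the end of 24 h at 35 °C around the onset of male meiosis, beside untreated controls of the same stage. Each of the 4 groups (heat-stressed and control ‘Mv 17-09’, heat-stressed and control ‘Ellvis’) had 3 libraries. An anther holds meiocytes, the tapetum that nourishes them and the outer wall layers, so that a change in the make-up of the tissue and a change of RNA within cells cannot be told apart.

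In the wheat annotation, a model is of low confidence where its support is weak: its protein is incomplete or resembles no well described plant protein. Such models include gene fragments, pseudogenes, pieces of transposable elements and transcripts that may code for no protein. Transposable elements fill most of the large wheat genome, and its A, B and D subgenomes hold many nearly identical copies. Grass anthers are also known for long non-coding transcripts that are cut into phased small RNAs around meiosis. None of the LC models named below has a gene name or a role in the sources used here, so they are described by ID, chromosome and level. The number in an ID follows the order of models along the chromosome. RNA was freed of ribosomal RNA and was not selected for poly(A) tails, so transcripts without a tail were also sequenced. How reads with several matching copies were counted is not given in the sources used here, and models with close copies are therefore uncertain.

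Library totals ranged from 9336312 to 20846135 counts in 11 libraries, and the 3 heat-stressed ‘Mv 17-09’ libraries were the smallest of these, at 9336312 to 9670186. ‘Ellvis’ control replicate 1 stood apart, with 1831675 counts spread thinly over many models, and it was left out of the tests. Its values are given separately. Heat-stressed ‘Ellvis’ replicate 1 also had many models with few counts: 51.3% of its detected LC models had only 1 or 2 counts, against 35.8% to 43.5% in the other 10 libraries and 62.5% in ‘Ellvis’ control replicate 1. The tissue was checked by pollen wall genes of the tapetum, whose 163 listed members averaged 42.2 to 51.4 CPM (counts per 1000000 of the library total) in heat-stressed ‘Mv 17-09’ libraries, against 133 to 147 CPM in their controls. In ‘Ellvis’ they averaged 119 to 140 CPM in heat-stressed and 114 to 121 CPM in control libraries. The 209 listed meiosis genes averaged 10.5 to 12.3 CPM in all 11 libraries.

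Detection was the first property compared. A count in at least 1 of the 11 libraries was found for 79031 LC models (50.2%), against 90612 HC models (86.1%). No count at all was found for 78271 LC models (49.8%) and 14641 HC models (13.9%). LC models with a count in every library numbered 15215 (9.67%), compared with 55590 HC models (52.8%). A single count in all 11 libraries together was the only trace of 18395 LC models. At equal mean level the gap was far smaller, and its direction depended on the level. Between 0.25 and 0.5 CPM, 55.0% of 5556 LC models had a count in all 11 libraries, against 52.8% of 6309 HC models. From 0.5 to 16 CPM the HC share was the higher one in each doubling of the level. Between 1 and 2 CPM, 88.3% of 3261 LC models had a count in all 11 libraries, against 93.5% of 8485 HC models. Between 4 and 8 CPM the shares were 93.7% of 1463 LC models and 98.9% of 9538 HC models. LC models were also more often counted in 1 cultivar only: 64 of the LC models at 1 to 2 CPM (1.96%) had no count in any library of the other cultivar, against 66 of the HC models (0.778%). At this level, a model absent from 1 cultivar was thus a small minority in both classes.

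Libraries were then brought to a common total of 9336312 counts, by the expected number of LC models that would keep at least 1 count. Heat-stressed ‘Mv 17-09’ libraries detected 30613, 31291 and 32044 LC models, against 31634, 28571 and 28887 in controls. Heat-stressed ‘Ellvis’ libraries detected 42250, 33858 and 30199, against 29082 and 29400 in controls. The ‘Mv 17-09’ groups overlapped. The ‘Ellvis’ groups did not, but the highest value was that of the heat-stressed replicate 1 with its many rare models. Over both cultivars heat-stressed libraries detected 3907 more LC models, which an exact two-sided permutation test within cultivars did not separate from control (p = 0.095, 0.127 after Benjamini-Hochberg adjustment over 4 such tests). HC models went the same way, with 2229 more detected under heat (p = 0.06, exact permutation test). Without heat-stressed ‘Ellvis’ replicate 1 the LC difference was 2203 models (p = 0.05, exact permutation test). With detection set at 5 counts or more, the difference was 1423 models and reached the smallest p this design allows (p = 0.005, exact permutation test). In that count each heat-stressed library lay above each control of its cultivar, from 13125 to 13817 against 12068 to 12335 in ‘Mv 17-09’ and from 13377 to 13847 against 12152 to 12226 in ‘Ellvis’. Between the cultivars, ‘Mv 17-09’ minus ‘Ellvis’ was -1832 models, which was not beyond the spread between libraries (p = 0.47, exact permutation test, both before and after adjustment), and -1427 for HC models (p = 0.16, exact permutation test). ‘Ellvis’ control replicate 1 detected 46214 LC models with its 1831675 counts, where the other 11 libraries would have kept 16032 to 20775 at that total. With it included at that total, heat minus control was -2964 models (p = 1, exact permutation test), so the direction of the detection difference depended on this library.

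Few LC models carried most of the LC counts, yet together they took a large part of every library. The LC share of library counts was 26.71%, 26.96% and 27.34% in heat-stressed ‘Mv 17-09’, against 23.47%, 23.87% and 23.28% in controls. In ‘Ellvis’ it was 20.67%, 20.89% and 21.995% under heat, against 20.52% and 20.82% in controls. The share in the library set apart was 23.06%. Both ‘Mv 17-09’ groups lay above all ‘Ellvis’ libraries of the main comparison, and the heat-stressed ‘Mv 17-09’ libraries lay above their controls, while the ‘Ellvis’ groups overlapped. The ‘Mv 17-09’ minus ‘Ellvis’ difference was 4.35 percentage points (p = 0.005, the smallest of 200 rearrangements in an exact two-sided permutation test within treatments, 0.02 after adjustment over 4 tests). Heat minus control was 1.99 percentage points over both cultivars (p = 0.025, exact permutation test within cultivars, 0.05 after adjustment, which is not under the threshold). It was 3.46 points in ‘Mv 17-09’ (exact permutation p = 0.1, the smallest for 3 libraries against 3) and 0.513 points in ‘Ellvis’ (exact permutation p = 0.5). Whether the effect differed between the cultivars was not tested. With ‘Ellvis’ control replicate 1 included, heat minus control was 1.59 points (p = 0.06, exact permutation test), and the cultivar difference was 3.95 points (p = 0.005, exact permutation test).

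**Figure D1:**
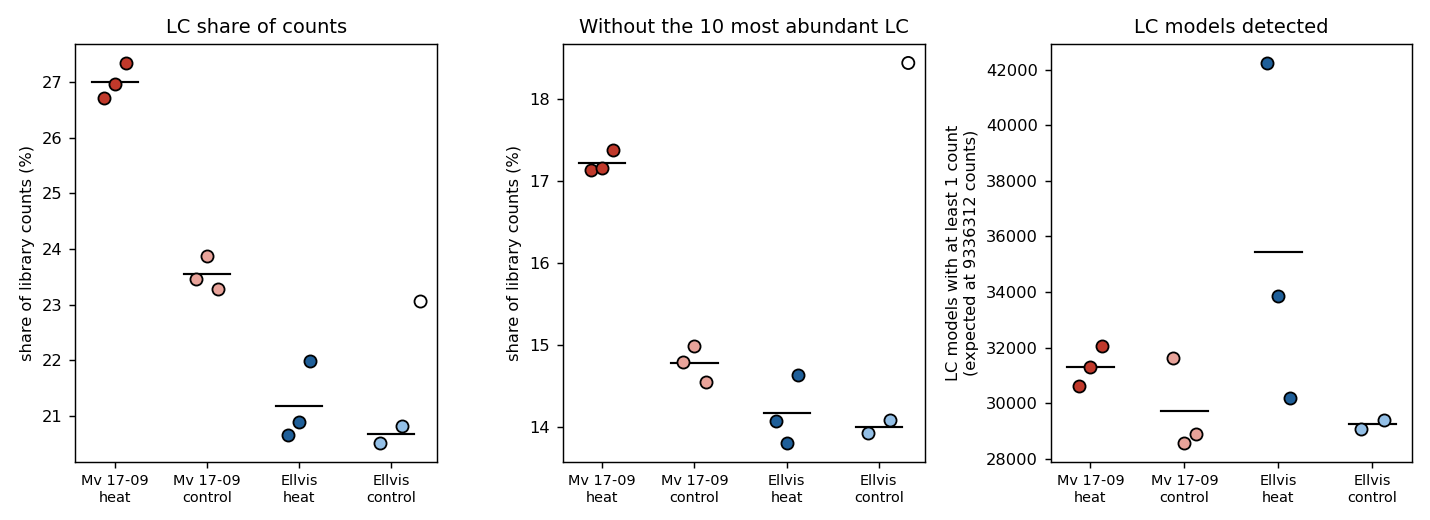
LC share of library counts (%), the same share without the 10 most abundant LC models (%), and LC models expected with at least 1 count at a common total, for each library (points) with group means (lines). The open point is ‘Ellvis’ control replicate 1, which is not in the means or the right panel. Heat-stressed ‘Mv 17-09’ libraries had the highest LC shares (26.71% to 27.34%), and heat-stressed ‘Ellvis’ replicate 1 the most LC models detected (42250). The vertical axes do not start at 0.

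Counts were more concentrated among LC than among HC models. The LC models that together held 50% of the LC counts numbered 20 to 22 in ‘Mv 17-09’ and 27 to 31 in ‘Ellvis’ libraries. The same share of HC counts took 2869 to 3356 models in ‘Mv 17-09’ and 3051 to 3553 in ‘Ellvis’. The 10 most abundant LC models held 35.8% to 36.4% of LC counts in heat-stressed ‘Mv 17-09’ and 36.9% to 37.5% in its controls, with 31.9% to 33.9% and 32.1% to 32.4% in heat-stressed and control ‘Ellvis’. At a mean of at least 10 log2 CPM there were 36 LC and 21 HC models, so the most abundant tier of the anther library was largely LC. Without those 10 models, the LC share was 17.14% to 17.38% in heat-stressed ‘Mv 17-09’, against 14.54% to 14.99% in controls. Heat minus control over both cultivars was then 1.31 points (exact permutation p = 0.045). The cultivar difference without them was 1.92 points (exact permutation p = 0.005), less than the 4.35 points with them. A share is relative: HC models lost 3.48 points in heat-stressed ‘Mv 17-09’, and a gain of LC RNA cannot be told apart from a loss of HC RNA in these counts.

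The 8 LC models with the highest mean level behaved unlike each other. TraesCS3D03G1103700LC on chromosome 3D had 21211, 23252 and 22253 CPM in heat-stressed ‘Mv 17-09’, against 9875, 11145 and 10188 CPM in controls. In ‘Ellvis’ it had 11826, 13436 and 14238 CPM under heat, against 11952 and 10462 CPM in controls. This model alone added 1.18 points to the LC share of heat-stressed ‘Mv 17-09’. Its log2 fold change of 0.98 in ‘Mv 17-09’ (standard error 0.08, edgeR adjusted p = 4.69e-09) was just short of the 2-fold minimum used for calls. Fold changes use TMM scaling of the libraries, while CPM use library totals. The CPM means of 22239 under heat and 10403 in controls differ by more than 2-fold, so this narrow miss rests on the scaling. In ‘Ellvis’ the log2 fold change was 0.11 (adjusted p = 0.45), and the difference between the cultivars was 0.88 (adjusted p = 2.04e-05).

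TraesCS5D03G0057100LC, the next in level, was the only one of the 8 called in a heat comparison with TMM scaling. It had 832, 3594 and 8772 CPM in heat-stressed ‘Mv 17-09’, against 23861, 21981 and 23290 CPM in controls. The 3 heat-stressed libraries differed among themselves by more than 10-fold and all lay far under the controls. It fell by 2.50 in log2 terms (standard error 0.43, edgeR adjusted p = 0.000119). In ‘Ellvis’ its 11501, 15423 and 12111 CPM under heat overlapped the 13096 and 16100 CPM of controls. This single model took 1.86 points from the LC share in ‘Mv 17-09’: without it the LC share was 26.46% to 26.63% in heat-stressed and 20.95% to 21.68% in control libraries, and the exact permutation p of heat minus control over both cultivars was 0.015.

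Of the remaining 6, TraesCS5D03G1010900LC averaged 15123 ± 560 CPM in heat-stressed and 8702 ± 130 CPM in control ‘Mv 17-09’ (SD, n = 3 each). TraesCS2D03G1232400LC averaged 13606 ± 751 CPM in heat-stressed and 7589 ± 418 CPM in control ‘Mv 17-09’ (SD, n = 3 each). TraesCS4D03G0347300LC averaged 7212 ± 94.6 CPM in heat-stressed and 4896 ± 253 CPM in control ‘Mv 17-09’ (SD, n = 3 each). Their groups did not overlap in ‘Mv 17-09’, and their log2 fold changes were 0.68, 0.73 and 0.45, with edgeR adjusted p of 2.88e-08, 6.9e-08 and 6.4e-05 and less than a 2-fold change. TraesCS1B03G0877200LC went the other way, with 7664, 7186 and 6897 CPM in heat-stressed ‘Mv 17-09’ and 9951, 10861 and 11327 CPM in controls. It was also the most cultivar-dependent of the 8: in ‘Ellvis’ it had 4091, 3242 and 3349 CPM under heat and 3192 and 3071 CPM in controls, and it was higher in ‘Mv 17-09’ by 1.47 in log2 terms (standard error 0.06, edgeR adjusted p = 5.18e-14). TraesCSU03G0519600LC, which is not placed on a chromosome, averaged 7106 ± 245 CPM in heat-stressed and 6680 ± 285 CPM in control ‘Mv 17-09’ (SD, n = 3 each), with a log2 fold change of -0.02 after TMM scaling (adjusted p = 0.843). TraesCS2D03G1232800LC, a near neighbour of TraesCS2D03G1232400LC in ID order, averaged 7538 ± 342 CPM in heat-stressed and 5878 ± 91.0 CPM in control ‘Mv 17-09’ (SD, n = 3 each), a log2 fold change of 0.25 (adjusted p = 0.0181).

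**Figure D2:**
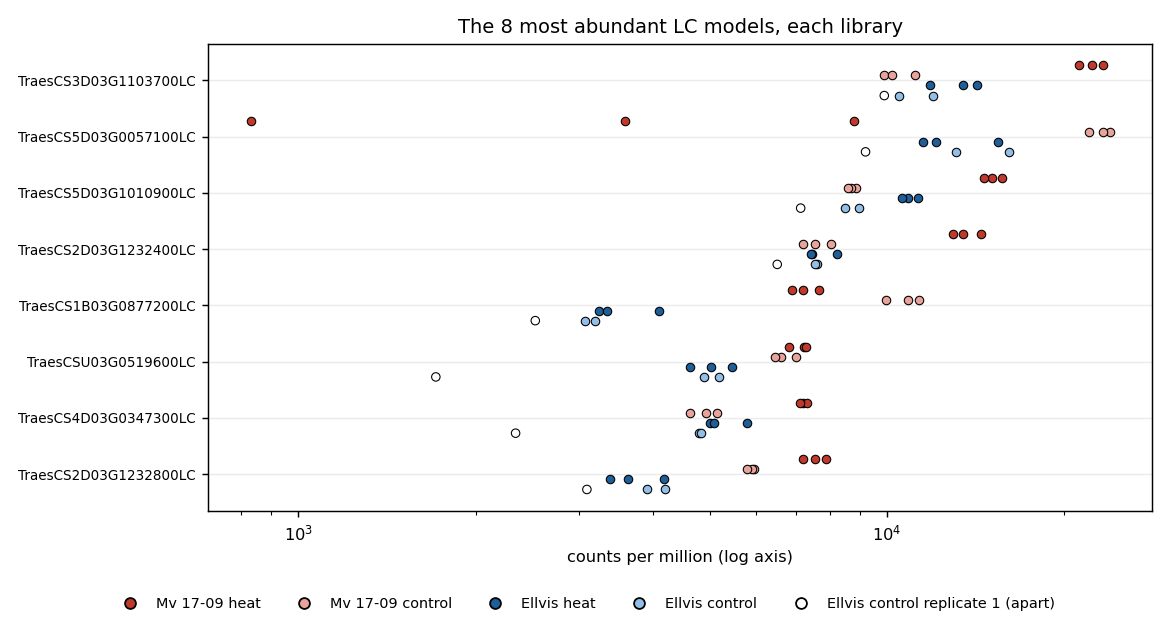
Levels of the 8 most abundant LC models (CPM, log axis), 1 point per library. The 4 groups are stacked within each model, and the open points are ‘Ellvis’ control replicate 1. TraesCS5D03G0057100LC spreads from 832 to 8772 CPM in heat-stressed ‘Mv 17-09’, under the 21981 to 23861 CPM of its controls.

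The heat effect was tested on all models with enough counts, 73743 in all, of which 15664 were LC and 57126 HC. A filter on low counts therefore kept 9.96% of LC and 54.3% of HC models, and every share of calls below is a share of tested models. Calls needed an adjusted p under 0.05 (Benjamini-Hochberg) together with a change of 2-fold or more in edgeR's quasi-likelihood test on 11 libraries. A model can pass the filter through the group in which it is high, so that shares of the lowest levels are partly set by the filter. Because models share libraries and can share reads, the difference between LC and HC shares of calls was not tested, and the shares are descriptions.

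In ‘Mv 17-09’, heat stress raised 1119 LC models (7.14% of those tested), against 6.18% of all tested models and 5.94% of HC models. It lowered 881 LC models (5.62%), against 8.33% of all tested models and 9.12% of HC models. More LC models rose than fell, while among HC models 3396 rose and 5212 fell. The LC balance moved with scaling and level: library totals in place of TMM gave 1449 up and 756 down, and a mean of at least 1 CPM gave 628 up and 618 down. The median log2 fold change of tested LC models was 0.12, compared with -0.03 for HC models and 0.00 for all. Most calls were of low level: 226 of the LC models that rose and 173 of those that fell had a group mean of at least 5 CPM. With all 12 libraries, where 70527 models of all kinds were tested, 682 LC models rose and 611 fell. Calls of HC models of similar mean level were fewer too, at 6.32% up and 6.65% down, against 9.02% and 8.81% with 11 libraries. Criteria modelled on the study were adjusted p under 1e-06 in a likelihood ratio and a Wald test, and at least 2-fold. They were applied here with edgeR and DESeq2 to 11 libraries, so the calls are not those of the study. By them 153 rose (0.977%, against 1.53% of all tested models) and 152 fell (0.970%, against 3.18%).

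In ‘Ellvis’, 689 LC models rose (4.40% of those tested), against 4.29% of all tested and 4.25% of HC models. The number that fell was 282 (1.80%), against 2.17% of all tested and 2.28% of HC models. These shares are near the background. Leaving out ‘Ellvis’ control replicate 2 left 403 LC models that rose, and leaving out control replicate 3 left 363, in fits where the lone control is assumed to vary like the other groups. With all 12 libraries, 272 rose and 154 fell. The shares of HC models of similar mean level dropped as well, to 2.19% up and 1.45% down, from 5.61% and 2.21% with 11 libraries. Scaling mattered here: with library totals in place of TMM, 925 rose and 198 fell, so that 82.4% of LC calls were increases, against 71.0% with TMM. With library totals the median log2 fold change of all tested models was 0.16 in ‘Ellvis’, against 0.03 with TMM. In ‘Mv 17-09’ it was 0.11, against 0.00 with TMM. Of the 689, 5 were at least 50 times lower in both ‘Ellvis’ groups than in ‘Mv 17-09’, and among them are models described below with the cultivar differences. By the criteria modelled on the study 44 rose (0.281%, against 0.59% of all tested) and 51 fell (0.326%, against 0.686%).

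LC models were next set beside HC models of similar mean level, in bins of 1 log2 unit. Weighted to the levels of the LC models, 9.02% of HC models rose and 8.81% fell in ‘Mv 17-09’, where 7.14% of LC models rose and 5.62% fell. In ‘Ellvis’ the weighted HC shares were 5.61% up and 2.21% down, against 4.40% and 1.80% of LC models. The lowest bins, whose shares are partly set by the filter, carry most of this weight. With a mean of at least 1 CPM, 6.72% of 9342 LC models rose in ‘Mv 17-09’, against 6.61% of HC models weighted to the same levels, and 6.62% fell, against 10.4%. For increases in ‘Mv 17-09’ the LC share was the lower one in each bin from -2 to 2 log2 CPM and the higher one in each bin from 2 to 11 log2 CPM. Among models with a mean of at least 4 log2 CPM, 55 of 749 LC models (7.34%) rose in ‘Mv 17-09’, against 2.89% of HC models weighted to the same levels. An equal number, 55 (7.34%), fell, against 12.8% of HC models so weighted. In ‘Ellvis’, 29 such LC models rose (3.87%, against 1.55% of HC models) and 25 fell (3.34%, against 2.42%).

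The classes also differed in the abundant bins of ‘Mv 17-09’, which hold few models. Between 8 and 9 log2 CPM, 5 of 36 LC models rose (13.9%) and 2 fell (5.56%), while 1.42% of 141 HC models rose and 26.2% fell. Between 9 and 10 log2 CPM, 10.3% of 29 LC models fell, against 46.5% of 43 HC models. Between 10 and 11 log2 CPM, 0 of 16 LC and 7 of 15 HC models fell. Above 11 log2 CPM no HC model fell, while 1 of 9 LC models fell between 11 and 12 and 1 of 4 between 13 and 14 log2 CPM. The median log2 fold change in ‘Mv 17-09’ was 0.08 for LC and -0.43 for HC models between 8 and 9 log2 CPM, and -0.08 for LC and -0.73 for HC models between 9 and 10. In ‘Ellvis’ the medians were -0.18 for LC and -0.29 for HC models between 8 and 9 log2 CPM, and -0.24 for LC and -0.20 for HC models between 9 and 10. The median biological coefficient of variation was 0.104 for LC and 0.1001 for HC models between 2 and 3 log2 CPM, and 0.0891 for LC and 0.0771 for HC models between 8 and 9 log2 CPM, and the part of this spread in the shares of calls was not tested.

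**Figure D3:**
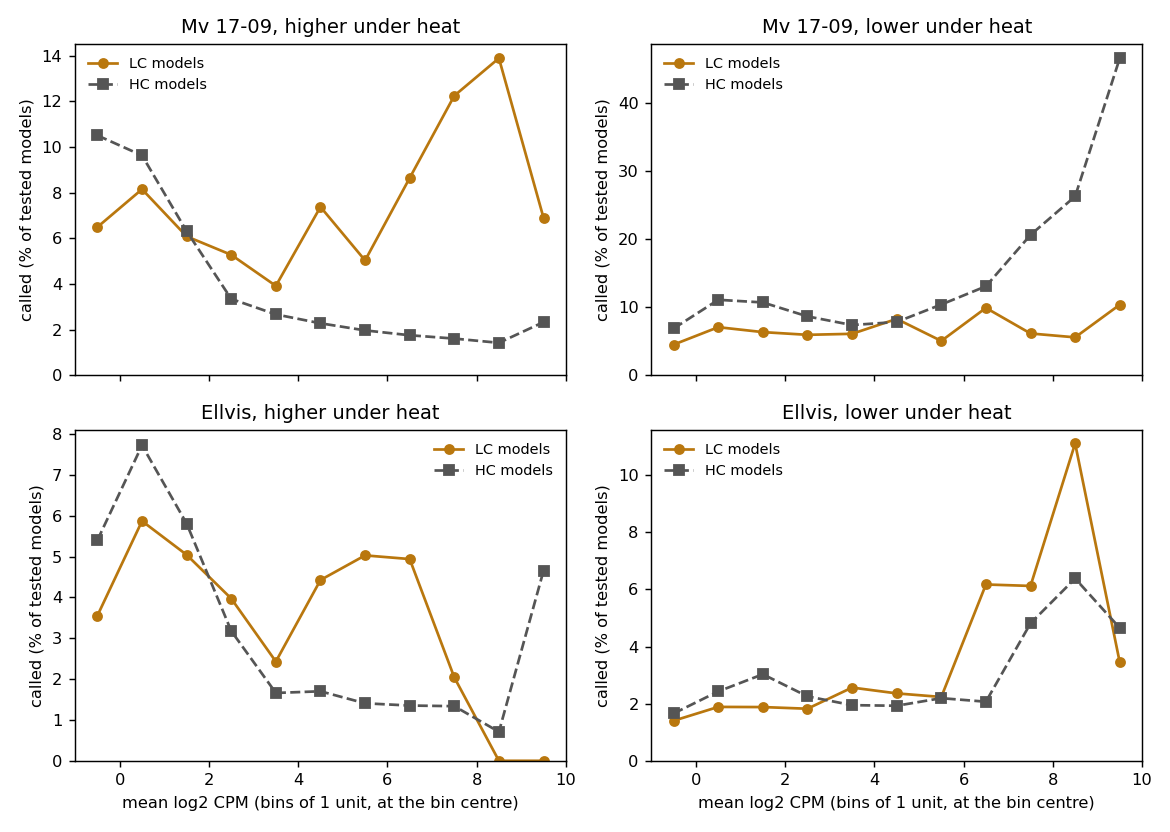
Share of tested models called (%, vertical axis) by mean log2 CPM (horizontal axis, bins of 1 unit), for LC and HC models in 4 panels by cultivar and direction. In ‘Mv 17-09’ the share of HC models that fell climbs to 46.5% at 9 to 10 log2 CPM, where 10.3% of LC models fell. The bins above 7 log2 CPM hold fewer than 50 LC models each.

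The LC models with the clearest rise in ‘Mv 17-09’ mostly rose in ‘Ellvis’ too. TraesCS6A03G0126100LC had 66.4, 65.2 and 61.1 CPM in heat-stressed ‘Mv 17-09’, against 10.7, 12.4 and 11.9 CPM in controls. It rose by 2.34 in log2 terms (standard error 0.11, edgeR adjusted p = 9.92e-13). In ‘Ellvis’ it had 34.7, 34.1 and 43.1 CPM under heat, against 12.8 and 11.3 CPM in controls, a rise of 1.503 (standard error 0.13, adjusted p = 4.36e-08). The control values of the cultivars overlapped, and the rise was greater in ‘Mv 17-09’ by 0.84 (adjusted p = 0.00119). TraesCSU03G0176900LC averaged 33.9 ± 0.996 CPM in heat-stressed and 5.71 ± 0.789 CPM in control ‘Mv 17-09’ (SD, n = 3 each), and 14.8 ± 0.904 CPM in heat-stressed (SD, n = 3) and 3.52 ± 0.172 CPM in control ‘Ellvis’ (SD, n = 2). TraesCS1A03G0543600LC averaged 32.1 ± 7.40 CPM in heat-stressed and 3.66 ± 0.485 CPM in control ‘Mv 17-09’ (SD, n = 3 each), a rise of 3.02 on the log2 scale (adjusted p = 3.65e-12), and rose by 1.86 in ‘Ellvis’ (adjusted p = 1.14e-07).

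The widest range among these was that of TraesCS2A03G0124300LC, which was almost silent in controls. It had 14.6, 14.1 and 12.9 CPM in heat-stressed ‘Mv 17-09’, against 0.882, 0.959 and 0.724 CPM in controls, and rose by 3.88 in log2 terms (standard error 0.21, edgeR adjusted p = 9.46e-12). In ‘Ellvis’ it had 5.73, 3.67 and 4.38 CPM under heat, against 0.462 and 0.208 CPM in controls, a rise of 3.56 (adjusted p = 1.84e-07). The heat effects of the cultivars differed by 0.32 (adjusted p = 0.762). TraesCS6B03G0333800LC was the only one of the 5 not called in ‘Ellvis’, although the groups overlapped in neither cultivar. It had 92.7, 137 and 112 CPM in heat-stressed ‘Mv 17-09’, against 15.3, 13.7 and 19.3 CPM in controls, with 48.4, 38.5 and 56.4 CPM in heat-stressed and 37.1 and 37.9 CPM in control ‘Ellvis’. It rose by 2.71 in ‘Mv 17-09’ (adjusted p = 1.14e-11), its log2 fold change in ‘Ellvis’ was 0.22 (adjusted p = 0.36), and the difference was 2.49 (standard error 0.21, adjusted p = 4.17e-08).

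The LC models with the clearest fall in ‘Mv 17-09’ included a pair on chromosome 4B with nearly the same counts. TraesCS4B03G0057000LC had 14.3, 17.0 and 19.2 CPM in heat-stressed ‘Mv 17-09’, against 362, 370 and 300 CPM in controls. TraesCS4B03G0056000LC had 17.7, 19.1 and 23.1 CPM in heat-stressed ‘Mv 17-09’, against 369, 366 and 300 CPM in controls. The ratio of the second to the first was 0.982 to 1.24 over the 11 libraries, and they may share reads, so that they count as 1 observation. The log2 fold changes were -4.47 (standard error 0.13) and -4.22 (standard error 0.12), each with an edgeR adjusted p of 1.68e-15. In ‘Ellvis’ the pair changed by less than 2-fold, with 85.9, 94.1 and 71.5 CPM under heat and 110 and 121 CPM in controls for TraesCS4B03G0057000LC (log2 fold change -0.59, adjusted p = 0.000961). Both fell more in ‘Mv 17-09’ (differences of -3.88 and -3.66, adjusted p = 7.37e-12 each).

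TraesCS4B03G0522400LC, also on chromosome 4B, had 2.59, 2.62 and 4.61 CPM in heat-stressed ‘Mv 17-09’, against 58.8, 55.8 and 50.6 CPM in controls. It fell by 4.19 on the log2 scale in ‘Mv 17-09’ (standard error 0.16, edgeR adjusted p = 7.08e-14) and by 1.45 in ‘Ellvis’ (standard error 0.13, adjusted p = 6.91e-08). TraesCS2D03G0785200LC averaged 60.9 ± 10.4 CPM in heat-stressed and 252 ± 9.00 CPM in control ‘Mv 17-09’ (SD, n = 3 each), and fell by 2.16 (adjusted p = 6.33e-13). In ‘Ellvis’ its 222, 239 and 207 CPM under heat overlapped the 227 and 230 CPM of controls. TraesCS1A03G1009800LC moved in opposite directions in the cultivars. It had 0.414, 1.05 and 0.214 CPM in heat-stressed ‘Mv 17-09’, against 15.9, 15.6 and 16.9 CPM in controls, and 32.2, 32.1 and 31.1 CPM in heat-stressed ‘Ellvis’, against 14.5 and 13.2 CPM in controls. The control levels of the cultivars were near each other, and under heat the level fell by 4.94 in ‘Mv 17-09’ (standard error 0.22, adjusted p = 6.68e-13) and rose by 1.07 in ‘Ellvis’ (standard error 0.13, adjusted p = 5.04e-06).

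Among the LC models with the clearest rise in ‘Ellvis’, all 5 also rose in ‘Mv 17-09’. TraesCS5B03G0223300LC had 46.8, 45.9 and 46.9 CPM in heat-stressed ‘Ellvis’, against 7.79 and 8.24 CPM in controls, and 30.4, 29.7 and 30.3 CPM in heat-stressed ‘Mv 17-09’, against 6.37, 5.47 and 8.39 CPM in controls. It rose by 2.41 in ‘Ellvis’ (standard error 0.13, edgeR adjusted p = 1.24e-10) and by 2.06 in ‘Mv 17-09’ (standard error 0.12, adjusted p = 2.73e-11). TraesCS1B03G1157300LC rose by 2.05 in ‘Ellvis’ (adjusted p = 1.95e-10) and by 1.87 in ‘Mv 17-09’ (adjusted p = 1.75e-11). TraesCS2A03G0158500LC averaged 17.2 ± 0.251 CPM in heat-stressed (SD, n = 3) and 1.38 ± 0.580 CPM in control ‘Ellvis’ (SD, n = 2), and was lower in ‘Mv 17-09’, at 3.54 ± 0.473 and 0.462 ± 0.127 CPM in heat-stressed and control anthers (SD, n = 3 each). The steepest rise of the 5 was that of TraesCS3B03G1457400LC, with 104, 64.7 and 123 CPM in heat-stressed ‘Ellvis’, against 3.69 and 3.05 CPM in controls. It rose by 4.72 (standard error 0.26, adjusted p = 1.27e-10), but ‘Ellvis’ control replicate 1, not in this test, had 32.8 CPM. TraesCS3D03G1154900LC, which rose by 3.54 in ‘Ellvis’ (adjusted p = 1.1e-09), likewise had 34.9 CPM in the library set apart, against 11.7 and 9.77 CPM in the other controls and 124, 121 and 164 CPM under heat.

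The LC models with the clearest fall in ‘Ellvis’ had smaller decreases or no called change in ‘Mv 17-09’. TraesCS7D03G0578400LC had 113, 107 and 122 CPM in heat-stressed ‘Ellvis’, against 501 and 516 CPM in controls, and 198, 189 and 212 CPM in heat-stressed ‘Mv 17-09’, against 385, 431 and 377 CPM in controls. It fell by 2.28 in ‘Ellvis’ (standard error 0.09, edgeR adjusted p = 3.67e-12) and by 1.11 in ‘Mv 17-09’ (standard error 0.08, adjusted p = 8.72e-10), a difference of 1.18 (adjusted p = 4.64e-07). TraesCS3A03G0380700LC averaged 28.2 ± 5.998 CPM in heat-stressed (SD, n = 3) and 110 ± 3.77 CPM in control ‘Ellvis’ (SD, n = 2), and fell by 2.08 (adjusted p = 2.76e-10). TraesCS2A03G0827600LC had 2.76, 2.84 and 2.59 CPM in heat-stressed ‘Ellvis’, against 17.1 and 15.8 CPM in controls, and fell by 2.72 (adjusted p = 7.1e-10). TraesCS3A03G0414900LC fell by 2.85 (adjusted p = 1.25e-09). The library set apart had 7.10 CPM of the first and 4.91 CPM of the second, between the groups. In ‘Mv 17-09’ both were near the heat-stressed ‘Ellvis’ level in each group, at 1.51 to 3.45 CPM and 0.965 to 2.51 CPM over 6 libraries.

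TraesCS7B03G0794800LC was counted only in ‘Ellvis’ controls. It had 0 CPM in all 3 heat-stressed ‘Ellvis’ libraries, against 17.5 and 18.1 CPM in controls and 7.64 CPM in the library set apart. All 6 ‘Mv 17-09’ libraries also had 0. Taking 3 counts over the 3 heat-stressed libraries as the limit that a count of 0 allows (0.0625 CPM, counting error only), it was at least 285-fold lower under heat. LC models with at least 10 counts in both ‘Ellvis’ controls and none in any heat-stressed ‘Ellvis’ library numbered 4 of 9213 (0.0434%), against 5 of 47208 HC models (0.0106%), and included TraesCS3B03G0054400LC, TraesCS4D03G0791700LC and TraesCS6A03G0729400LC, which were named after their values were seen. The reverse pattern was found for 8 of 9761 LC models (0.0820%) and for 40 of 48746 HC models (0.0821%), nearly the same share. In ‘Mv 17-09’, 30 of 9284 LC models (0.323%) had at least 10 counts in every control and none under heat, against 39 of 47080 HC models (0.0828%). The reverse was seen for 2 of 7015 LC models (0.0285%) and 13 of 41409 HC models (0.0314%), the LC models being TraesCS1B03G0736300LC and TraesCS1B03G1224100LC, also named after their values were seen. The heat-stressed ‘Mv 17-09’ libraries were the smaller ones. LC and HC models were not matched on level in these shares.

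**Figure D4:**
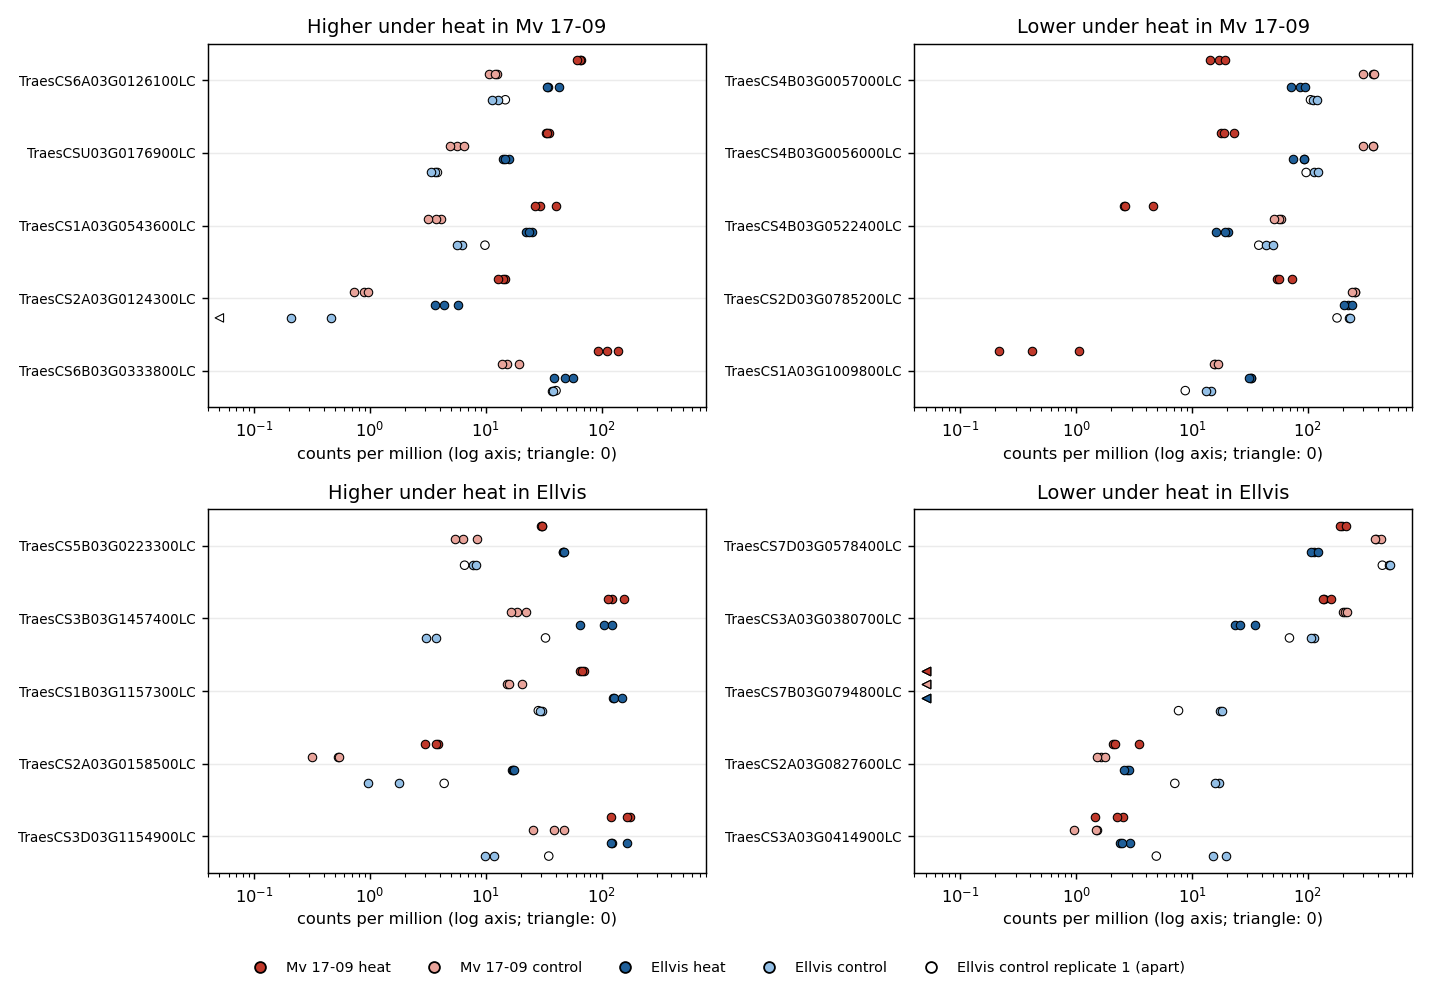
Levels (CPM, log axis) of the LC models with the smallest p in each cultivar and direction, 1 point per library with the 4 groups stacked within each model. Open points are ‘Ellvis’ control replicate 1 and triangles mark a value of 0. In the top left panel 4 of the 5 models were also called higher under heat in ‘Ellvis’, and TraesCS1A03G1009800LC in the top right panel is lower under heat in ‘Mv 17-09’ and higher in ‘Ellvis’.

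The heat comparisons of the cultivars use separate libraries, and their LC calls overlapped in part. In both cultivars 223 LC models rose, which is 19.9% of the ‘Mv 17-09’ and 32.4% of the ‘Ellvis’ list. A further 105 fell in both, 11.9% of the ‘Mv 17-09’ and 37.2% of the ‘Ellvis’ list. Opposite calls were fewer: 39 LC models fell in ‘Mv 17-09’ and rose in ‘Ellvis’ (4.43% of the ‘Mv 17-09’ and 5.66% of the ‘Ellvis’ list), and 5 did the reverse. Of HC models, 831 rose in both, 24.5% of the ‘Mv 17-09’ and 34.3% of the ‘Ellvis’ list, and 626 fell in both, 12.01% of the ‘Mv 17-09’ and 48.2% of the ‘Ellvis’ list. HC models that fell in ‘Mv 17-09’ and rose in ‘Ellvis’ numbered 269 (5.16% and 11.1% of these lists). A test of the difference between the heat effects called 343 LC models as more positive in ‘Mv 17-09’ (2.19%, against 2.5% of all tested models) and 739 as more negative (4.72%, against 7.11%). Leaving out ‘Ellvis’ control replicate 2 left 221 of the first kind, and with all 12 libraries the numbers were 142 and 326. Among the abundant ones, TraesCS1B03G0824900LC had 993, 1005 and 1017 CPM in heat-stressed ‘Mv 17-09’, against 421, 450 and 390 CPM in controls, while 660, 615 and 628 CPM in heat-stressed ‘Ellvis’ overlapped the 598 and 697 CPM of controls. Its heat effects differed by 1.30 in log2 terms (standard error 0.11, edgeR adjusted p = 5.79e-08). TraesCS2A03G0827600LC, which fell in ‘Ellvis’ and not in ‘Mv 17-09’, had a difference of 3.23 (standard error 0.29, adjusted p = 8.51e-08).

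Over all tested LC models, more were called between the cultivars than by heat. The cultivar comparison contrasted all 11 libraries, and each heat comparison only those of 1 cultivar. Their numbers of calls are therefore not like for like. Averaged over treatments, 2164 LC models were higher in ‘Mv 17-09’ (13.8% of those tested), against 8.82% of all tested and 7.49% of HC models. Lower in ‘Mv 17-09’ were 2109 LC models (13.5%), against 10.9% of all tested and 9.14% of HC models. Weighted to LC levels, the HC shares were 11.5% higher and 12.6% lower. With a mean of at least 1 CPM, 948 of 9342 LC models (10.1%) were higher and 1066 (11.4%) lower in ‘Mv 17-09’, against 7.52% and 9.76% of HC models weighted to the same levels. With all 12 libraries 1605 LC models were higher and 1879 lower. With a mean of at least 4 log2 CPM, 46 of 749 LC models (6.14%) were higher and 35 (4.67%) lower in ‘Mv 17-09’. The HC shares weighted to those levels were 3.24% and 4.99%. At that level heat in ‘Mv 17-09’ gave more calls than the cultivar, 55 up and 55 down. Heat in ‘Ellvis’ gave fewer, 29 up and 25 down.

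The 6 LC models with the smallest p between the cultivars were close to absent in 1 of them. TraesCS7B03G0602100LC had 193, 218 and 202 CPM in heat-stressed and 240, 247 and 236 CPM in control ‘Mv 17-09’, against 0.435, 0.474 and 1.04 CPM in heat-stressed and 0.0577 and 0 CPM in control ‘Ellvis’. It was higher in ‘Mv 17-09’ by 10.48 in log2 terms (standard error 0.16, edgeR adjusted p = 8.02e-21). Its near neighbour TraesCS7B03G0602300LC showed the same pattern at 86.6 to 106 CPM in ‘Mv 17-09’ and 0 to 0.580 CPM in ‘Ellvis’. TraesCS7B03G1160100LC had 72.3 to 104 CPM in ‘Mv 17-09’ and 0 to 0.518 CPM in ‘Ellvis’, a difference of 9.10 (adjusted p = 3.27e-20). Such trace levels, of 32 counts or fewer over the 3 heat-stressed ‘Ellvis’ libraries, also gave a heat call in ‘Ellvis’ for these 3 models. Their levels there were far under those of ‘Mv 17-09’, and whether these are counts of the model itself was not tested. In the other direction, TraesCS1A03G0168100LC had 0 to 0.214 CPM in ‘Mv 17-09’ and 47.4 to 69.2 CPM in ‘Ellvis’, and had a log2 difference of -9.41 (standard error 0.20, adjusted p = 6.7e-19). TraesCS6B03G0467600LC had 0 to 0.321 CPM in ‘Mv 17-09’ and 38.2 to 67.1 CPM in ‘Ellvis’. TraesCS7B03G0492400LC had 0 to 0.121 CPM in ‘Mv 17-09’ and 20.4 to 28.1 CPM in ‘Ellvis’.

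LC models with at least 10 counts in each library of 1 cultivar and none in any of the other were counted next. In ‘Mv 17-09’ 84 of 6609 LC models were of this kind (1.27%), against 51 of 40233 HC models (0.127%). In ‘Ellvis’ 192 of 8232 LC models (2.33%) were, against 127 of 45491 HC models (0.279%). LC and HC models were not matched on level in these shares. At 1 to 2 CPM, 1.96% of LC and 0.778% of HC models were counted in 1 cultivar only. At 4 to 8 CPM these were 0.889% and 0.126%. Most of them were of low level, with medians of 2.12 and 1.88 CPM in the cultivar that had them. Of the 84, 14 lay on chromosome 4B (16.7%) and 10 on 2B (11.9%). These chromosomes held 763 and 882 of the 15664 tested LC models. Of the 192, 20 lay on 1B outside the stretch set aside (10.4%), 19 on 7B (9.90%) and 17 on 6B (8.85%). Tested LC models there numbered 567, 938 and 829. A difference in gene content and a difference in sequence that keeps reads from mapping cannot be told apart in these counts.

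Along the genome, the shares of LC models called by heat differed little between subgenomes, and those called by cultivar differed more. The LC models tested numbered 5128 in the A, 5623 in the B and 4578 in the D subgenome. The share that rose under heat in ‘Mv 17-09’ was 7.39%, 7.02% and 6.99% in A, B and D, and the share that fell was 5.52%, 5.44% and 5.90%. In contrast, 13.9% and 15.99% of A and B LC models were higher in ‘Mv 17-09’ than in ‘Ellvis’, but 10.9% in D, and 13.8%, 15.7% and 9.81% were lower. HC models kept this order for increases, with 7.21%, 8.84% and 6.26% in A, B and D. By chromosome, the share of LC models that were higher in ‘Mv 17-09’ ran from 8.30% on 2D to 19.8% on 5B, and the share that were lower from 6.36% on 4D to 22.2% on 1B. The IDs of each chromosome were also split in order into 10 equal groups. LC models higher in ‘Mv 17-09’ made up 26.0% of those tested in group 1 and 19.9% in group 10, at the chromosome ends, against 9.99% in group 4 and 9.67% in group 5. HC models showed the same shape at a lower level, with 14.3% and 12.9% at the ends and 3.91% and 4.48% in groups 4 and 5. The share of LC models that passed the count filter had the opposite shape, with 7.11% and 7.43% at the ends and 13.3% in both groups 4 and 5. Heat calls of LC models in ‘Mv 17-09’ were also fewer in the middle. Decreases made up 6.55% and 6.67% in groups 1 and 10, against 3.83% and 3.16% in groups 4 and 5. Increases made up 7.78% and 9.16%, against 5.90% and 5.98%.

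**Figure D5:**
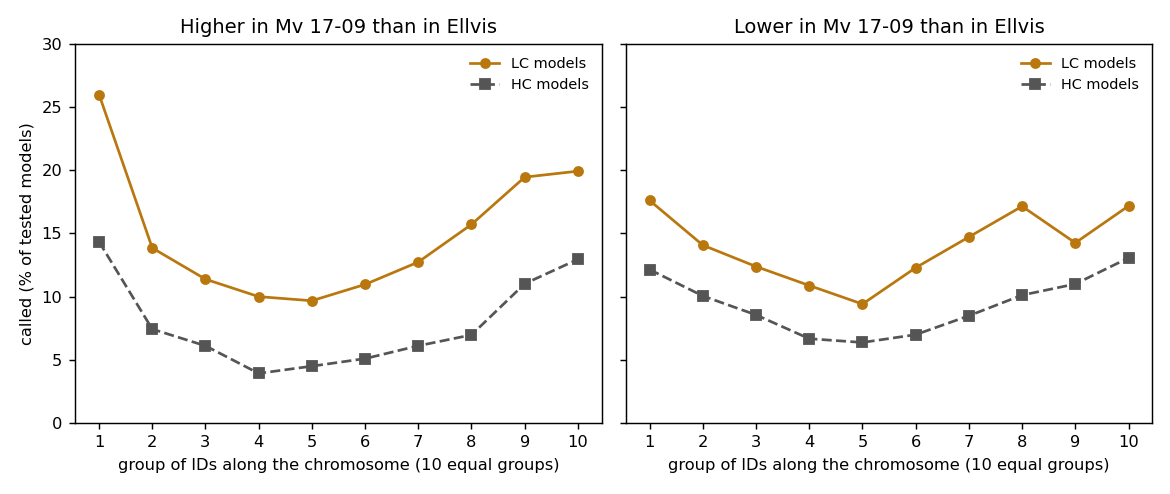
Share of tested models (%, vertical axis) that were higher (left) or lower (right) in ‘Mv 17-09’ than in ‘Ellvis’, by group of gene IDs in order along each chromosome (horizontal axis, 10 equal groups), pooled over the placed chromosomes for LC and HC models. LC shares are highest at the chromosome ends (26.0% and 19.9% for models higher in ‘Mv 17-09’) and lowest in groups 4 and 5 (9.99% and 9.67%).

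Adjacent models gave a further view, because an LC model beside a gene can take up reads of that gene's transcript. For 5949 tested LC models the next ID was a tested HC model. Of the 437 that rose in ‘Mv 17-09’, 11.2% had an HC neighbour that also rose, where 5.03% of these HC neighbours rose in all. Of the 423 that fell, 22.2% had an HC neighbour that also fell, where 9.23% fell in all. Among 29857 HC models with a tested HC model at the next ID, the figures were 14.7% for increases and 14.1% for decreases. The correlation of log2 fold changes over the LC pairs was 0.12 for heat in ‘Mv 17-09’, 0.08 in ‘Ellvis’ and 0.28 between the cultivars, and pairs share libraries and may share reads. Over the HC pairs it was 0.12, 0.11 and 0.30. In ‘Ellvis’, 10.4% of the 268 LC models that rose had an HC neighbour that also rose, where 4.47% rose in all. Of the 103 that fell there, 13.6% had an HC neighbour that also fell, where 1.87% fell in all. The HC pairs in ‘Ellvis’ gave 11.4% for increases and 9.42% for decreases. Among these pairs, most LC models called by heat had an HC neighbour that was not called in the same direction. Whether neighbours shared reads was not tested.

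Runs of consecutive tested LC models called in 1 direction were short. The longest run of increases in ‘Mv 17-09’ held 5 models, from TraesCS2D03G1272200LC to TraesCS2D03G1274300LC on chromosome 2D, with log2 fold changes of 1.34 to 3.39. Of the 6 tested HC models between them, 1 was called in that direction. Levels in this run were low. Its most abundant member, TraesCS2D03G1272400LC, had 4.24, 10.9 and 15.4 CPM in heat-stressed ‘Mv 17-09’, against 4.35, 2.49 and 3.801 CPM in controls, so that 1 heat-stressed library lay among the controls. This model (log2 fold change 1.42, edgeR adjusted p = 0.0234) lost its call without heat-stressed ‘Mv 17-09’ replicate 3 (0.998, adjusted p = 0.162), without replicate 2 (1.37, adjusted p = 0.0693), without control replicate 2 (1.22, adjusted p = 0.0995) and in DESeq2 (1.42, adjusted p = 0.388). TraesCS2D03G1273100LC lost its call in 10 alternative settings (adjusted p of 0.0519 to 0.185) and TraesCS2D03G1274300LC in 6 (0.0514 to 0.105), so that 3 of the 5 calls of this run were not firm. The longest run of decreases in ‘Mv 17-09’ was 4 models on chromosome 4B, from TraesCS4B03G0433600LC to TraesCS4B03G0434700LC, with log2 fold changes of -2.25 to -1.23. TraesCS4B03G0434600LC in this run had 1.24, 0.733 and 0.428 CPM in heat-stressed ‘Mv 17-09’, against 3.47, 3.98 and 3.20 CPM in controls.

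In ‘Ellvis’ the longest run of increases was 5 models on chromosome 1A, from TraesCS1A03G0131700LC to TraesCS1A03G0132300LC, with log2 fold changes of 2.03 to 4.88. TraesCS1A03G0131800LC had 3.12, 2.07 and 3.11 CPM in heat-stressed ‘Ellvis’, against 0.231 and 0.208 CPM in controls, and TraesCS1A03G0132100LC had 2.103, 2.02 and 0.979 CPM, against 0.231 and 0.346 CPM. No HC model was tested between them, and no count of TraesCS1A03G0132000LC or TraesCS1A03G0132100LC was found in ‘Mv 17-09’. The first model of the run lost its call without ‘Ellvis’ control replicate 2 (1.89, edgeR adjusted p = 0.127 for TraesCS1A03G0131700LC) and without control replicate 3 (2.15, adjusted p = 0.0761). TraesCS1A03G0132000LC lost its call in 5 alternative settings (adjusted p of 0.0515 to 0.22) and TraesCS1A03G0132100LC in 1, without control replicate 2 (adjusted p = 0.103). The longest run of decreases in ‘Ellvis’ held 3 models, TraesCS7A03G0389100LC to TraesCS7A03G0389300LC. The first had 171, 213 and 200 CPM in heat-stressed ‘Ellvis’, against 372 and 373 CPM in controls. It fell by 1.06 in log2 terms (standard error 0.09, edgeR adjusted p = 3.56e-08), near the 2-fold minimum. The library set apart had 168 CPM, under all 3 heat-stressed libraries, and with all 12 libraries the log2 fold change was -0.75 (edgeR adjusted p = 0.0731). Library totals in place of TMM gave -0.94, and leaving out heat-stressed ‘Ellvis’ replicate 1 gave -0.96, both under the 2-fold minimum. TraesCS7A03G0389200LC lost its call in 2 alternative settings and TraesCS7A03G0389300LC in 3, so that none of the 3 calls held in every setting.

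LC models next to genes of the study's meiosis, spindle, actin and tapetum lists came last. Of 900 LC models adjacent to 1 of the 884 listed genes, 95 were tested. Heat raised 3 (3.16%) and lowered 6 (6.32%) of them in ‘Mv 17-09’, where 7.14% and 5.62% of all tested LC models rose and fell. It raised 3 (3.16%) and lowered 0 in ‘Ellvis’, where the shares of all tested LC models were 4.40% and 1.80%. These shares are near or under those of all tested LC models, and nothing is read from them about the listed genes. TraesCS5D03G0638100LC lies next to TraesCS5D03G0638200, listed by the study as TKPR1, at chr5D:383867189-383870558 in RefSeq v2.1. TKPR1 encodes a tetraketide reductase that helps build the pollen wall polymer in the tapetum. The LC model had 1.45, 1.26 and 1.82 CPM in heat-stressed ‘Mv 17-09’, against 4.98, 5.85 and 3.08 CPM in controls, and fell by 1.74 in log2 terms (standard error 0.27, edgeR adjusted p = 3.5e-05). The TKPR1 gene fell by 2.56 (adjusted p = 7.87e-13), with means of 69.3 CPM in heat-stressed and 378 CPM in control ‘Mv 17-09’. In ‘Ellvis’ neither passed the test, with log2 fold changes of -0.08 (adjusted p = 0.849) for the LC model and -0.02 (adjusted p = 0.955) for the gene. CPM are not divided by length, so the levels of the LC model and of the gene were not compared.

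For the other named models the listed gene itself had few or no counts, so that it could not be tested or was not called. TraesCS4A03G0242500LC, next to a gene for an anaphase-promoting complex subunit 11-like protein at chr4A:144378414-144380498, had 1.86, 2.93 and 3.75 CPM in heat-stressed ‘Mv 17-09’, against 6.05, 6.96 and 7.602 CPM in controls. It fell by 1.39 (standard error 0.19, edgeR adjusted p = 1.01e-05), while the listed gene averaged 0.140 CPM in heat-stressed and 0.195 CPM in control ‘Mv 17-09’. TraesCS7A03G0361400LC, beside a gene for a subunit 10-like protein of the same complex at chr7A:111841796-111845354, fell by 1.26 (adjusted p = 0.000146), and no count of that gene was found in the 11 libraries. The complex marks cell cycle proteins for destruction at the end of metaphase. TraesCS7A03G0773100LC lies next to TraesCS7A03G0773200, a listed 3-ketoacyl-CoA synthase gene of fatty acid elongation, and had 0.827, 0.628 and 0.321 CPM in heat-stressed ‘Mv 17-09’, against 2.27, 2.64 and 2.71 CPM in controls, a fall of 2.20 (adjusted p = 1.56e-05). TraesCS6D03G0561100LC, beside an actin-depolymerizing factor gene at chr6D:341802666-341804499, had 0, 0.314 and 0.428 CPM in heat-stressed ‘Mv 17-09’, against 3.66, 1.49 and 2.84 CPM in controls, and fell by 3.48 (adjusted p = 4.71e-05). TraesCS6B03G0633600LC, beside a gene for the actin-bundling protein fimbrin at chr6B:358099448-358105655, had 4.42, 5.57 and 5.07 CPM in heat-stressed ‘Ellvis’, against 2.14 and 2.42 CPM in controls. It rose by 1.02 (adjusted p = 0.002), which is just past the 2-fold minimum: the call was lost with all 12 libraries (0.98, adjusted p = 0.0127), without ‘Ellvis’ control replicate 2 (0.92, adjusted p = 0.0478) and without heat-stressed ‘Ellvis’ replicate 2 (0.95, adjusted p = 0.00974).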

How the data were processed

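The authors depleted ribosomal RNA from total anther RNA, made directional libraries, checked reads with FastQC 0.11.8, and trimmed and mapped them with CLC Genomics Workbench to IWGSC RefSeq v2.1. The deposited values are unnormalized counts per gene model, 1 table per library. The handling of multi-mapped reads and of strand is not given in the sources used here. Each group had 3 biological replicates, sequenced separately.

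All models with enough counts (edgeR filterByExpr, minimum count 10, minimum total 15) were tested together with edgeR 4.0.16 (R 4.3.3): TMM scaling, quasi-likelihood F test on 4 groups, Benjamini-Hochberg adjustment over all tested models, calls at adjusted p under 0.05 and at least 2-fold. Standard errors are the fold change over the root of F. CPM are counts per 1000000 of the library total. ‘Ellvis’ control replicate 1 was left out. Shares and detection were compared by exact two-sided permutation tests. Alternatives were DESeq2 1.42.0, other scalings, filters and thresholds, a replicate block and leaving out libraries. Named models are the 8 most abundant, the 5 of smallest p per heat comparison and direction among those with at least 5 CPM and groups that do not overlap, the 3 of smallest p per direction for the cultivar and its interaction with heat, those next to listed genes of smallest p, and the longest runs. The members and lists were chosen with earlier results of these data known. The test code was checked on simulated counts. No sequences of LC models were used here.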

Additional observations from a re-analysis of the deposited data

Results flagged for a closer look

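Of the LC models named for a difference between the cultivars in the heat effect, 3 had a more positive effect in ‘Mv 17-09’, by edgeR's interaction test. The differences in log2 fold change, ‘Mv 17-09’ minus ‘Ellvis’, were 2.49 for TraesCS6B03G0333800LC, 3.23 for TraesCS2A03G0827600LC and 1.30 for TraesCS1B03G0824900LC. A more negative effect in ‘Mv 17-09’ was found for TraesCS1A03G1009800LC at -6.01, TraesCS4B03G0057000LC at -3.88 and TraesCS4B03G0056000LC at -3.66, of which the last pair may share reads.

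‘Ellvis’ control replicate 1, outside the main comparisons, held counts of 46214 LC models in a total of 1831675 counts, where the other libraries would keep 16032 to 20775 at that total. Its LC models with at least 10 counts numbered 2938.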

How the results depend on the processing

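With all 12 libraries, including ‘Ellvis’ control replicate 1, heat calls of LC models were 682 up in ‘Mv 17-09’, 272 up and 154 down in ‘Ellvis’, and 142 positive and 326 negative for the difference between the cultivars. Heat minus control was then 1.59 points of LC share (exact permutation p = 0.06) and, at the lowest total, -2964 LC models detected (exact permutation p = 1), and the HC shares at similar level were, in ‘Mv 17-09’, 6.32% for increases and 6.65% for decreases, with 2.19% and 1.45% in ‘Ellvis’. The cause was not tested. At 5 counts or more, detection differed by 1423 models (exact permutation p = 0.005). With no fold minimum, 1984 LC models rose in ‘Mv 17-09’, 1181 rose and 626 fell in ‘Ellvis’, 570 had a positive difference and 3627 were higher in ‘Mv 17-09’. The criteria modelled on the study, applied with edgeR and DESeq2 to 11 libraries, gave 153 increases and 152 decreases in ‘Mv 17-09’, with 44 and 51 in ‘Ellvis’. DESeq2 called 422 up in ‘Ellvis’. No count filter gave 3296 higher and 3469 lower in ‘Mv 17-09’. A minimum of 1 CPM, chosen after seeing the data and testing fewer models, left 628 up in ‘Mv 17-09’ and 458 up in ‘Ellvis’. For most of these settings the share of all tested models is not given here. Their numbers of calls are therefore no result about LC models alone.

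Leaving out each library in turn gave 877 to 1178 LC models up and 721 to 936 down in ‘Mv 17-09’, 363 to 739 up and 201 to 307 down in ‘Ellvis’, 221 to 364 positive and 568 to 742 negative differences, 1988 to 2496 higher and 1882 to 2289 lower in ‘Mv 17-09’. It gave 1.79 to 2.12 points for heat and 4.22 to 4.55 for cultivar in LC share, and 2203 to 5216 (heat) and -3141 to -128 (cultivar) LC models detected. A replicate block gave 1044 increases and 850 decreases in ‘Mv 17-09’, with 617 and 259 in ‘Ellvis’. Deviations of same-numbered libraries from their group means had correlations of -0.034 to 0.034 in 15 pairs. In 30 pairs of other numbers these were -0.052 to 0.047. No pairing by number was seen, but with 2 or 3 libraries per group this check cannot exclude one. Of 1309 alternative values of the named models, 41 lost the call and 4 gained it. The sign changed in 0 values of called models and in 14 of models not called. Leaving out trace counts or TraesCS5D03G0057100LC was also chosen after seeing the data.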
